A study of Homo sapiens with 4 samples.

Results

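A group of 9 genes of aryl hydrocarbon receptor signalling and of the kynurenine pathway was followed in breast cancer cells with and without full levels of hnRNPM, an RNA-binding protein of the heterogeneous nuclear ribonucleoprotein family that regulates splicing. They were AHR, ARNT, AHRR, CYP1B1, CYP1A1, TIPARP, KYNU, KMO and IDO1, taken by gene name from a table of 20329 genes, and all 9 were found. They were picked with their levels in these same libraries already known, from the knockdown changes in each line and the difference between lines, so their values are given as a description without a test. Both cell lines derive from MDA-MB-231, a triple-negative breast cancer line. The labels give BM1 (1833) as its bone and LM2 (4175) as its lung metastasis derivative. In each line, 1 culture carried a non-specific shRNA as control and 1 carried an shRNA against hnRNPM, both stably expressed from lentiviral vectors in DMEM with serum. Every culture gave 1 polyA library, so the study has 4. From the steps between low values, the depth was inferred as about 31257181 fragments for the BM1 control and 22783994 for its knockdown, and as 41502788 and 27263580 for LM2. HNRNPM was left at 16.6% of its control FPKM in the BM1 knockdown library and at 15.4% in the LM2 knockdown library. With 1 library per line and treatment, no change within a line has a replicate check.

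The aryl hydrocarbon receptor, AHR, is a transcription factor that waits in the cytosol on a chaperone complex until a ligand such as dioxin or a tryptophan metabolite binds it. It then enters the nucleus, pairs with ARNT, and binds DNA at a short core sequence, GCGTG, near its target genes. CYP1A1 and CYP1B1, which oxidise aromatic compounds and oestrogens, are its classic targets, and AHRR and TIPARP are targets that restrain it in turn. The kynurenine pathway degrades tryptophan. IDO1 opens the indole ring, KMO hydroxylates kynurenine, and KYNU cleaves kynurenine and 3-hydroxykynurenine. Kynurenine itself is a ligand of AHR, which ties the pathway to the receptor.

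The 250 bases upstream of the annotated start are shown for 4 of the genes, because they set a classic target (CYP1A1) and the receptor's repressor (AHRR) beside the kynurenine enzymes whose levels differed most between control and knockdown (KMO and KYNU). Sequences and coordinates in this paragraph come from RefSeq on GRCh38.p14, and capitals mark GCGTG. Of the 9 genes, 7 were matched by symbol in this set, and CYP1B1 and IDO1 were not.
CYP1A1 (chr15:74725529-74725778, minus strand): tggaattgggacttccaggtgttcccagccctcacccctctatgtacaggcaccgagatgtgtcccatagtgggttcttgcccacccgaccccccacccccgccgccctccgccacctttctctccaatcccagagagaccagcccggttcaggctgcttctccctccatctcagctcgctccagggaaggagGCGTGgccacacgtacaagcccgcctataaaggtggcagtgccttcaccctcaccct
AHRR (chr5:321464-321713, plus strand, the first of 2 listed starts): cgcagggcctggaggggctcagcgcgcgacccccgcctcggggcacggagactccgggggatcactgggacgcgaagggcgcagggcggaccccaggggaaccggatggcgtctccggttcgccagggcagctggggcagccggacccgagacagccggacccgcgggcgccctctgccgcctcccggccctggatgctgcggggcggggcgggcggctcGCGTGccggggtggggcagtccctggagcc
KMO (chr1:241532128-241532377, plus strand): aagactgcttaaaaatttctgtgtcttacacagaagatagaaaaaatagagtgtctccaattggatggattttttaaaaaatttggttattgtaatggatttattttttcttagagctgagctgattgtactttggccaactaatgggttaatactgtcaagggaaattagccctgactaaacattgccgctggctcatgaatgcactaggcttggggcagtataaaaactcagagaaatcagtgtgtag
KYNU (chr2:142877414-142877663, plus strand): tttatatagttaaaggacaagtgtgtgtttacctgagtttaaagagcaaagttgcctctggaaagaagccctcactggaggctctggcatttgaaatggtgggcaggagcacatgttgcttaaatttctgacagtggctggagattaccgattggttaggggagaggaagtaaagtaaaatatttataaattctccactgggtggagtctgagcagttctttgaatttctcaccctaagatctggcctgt
The CYP1A1 window held 1 core, which began 57 bases before the start, and the first AHRR window held 1, which began 30 bases before it. The second AHRR start had 2 cores and the first of the 3 TIPARP starts had 2. None was found in the windows of KMO, KYNU, AHR or ARNT. Searched on both strands, GCGTG occurred in 32.2% of 35116 upstream windows of this length, and the longer form TNGCGTG, which contains it, in 4.52%. The first AHRR window was the only member window with the longer form. A match is a description of the letters, and the window leaves out the more distant enhancers through which CYP1A1 is known to be induced.

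Values are FPKM, that is fragments per kilobase of gene model after scaling to library depth, and coordinates from here on are those of the deposited table, for which the submitters' processing notes name GRCh37. Values of 1 line joined by "then" are control and knockdown. A change is the difference on log2(FPKM + 1), knockdown minus control, and 2-fold means at least 1 on that scale, which understates the change of low genes. The comparison with other genes used the 13928 whose FPKM averaged 1 or more, among them 8 of the 9 members (all except IDO1). In BM1, 5 of these 8 were at least 2-fold higher in the knockdown library and 0 were 2-fold lower, where 10.1% of all genes compared were 2-fold higher and 6.2% 2-fold lower. In LM2, 2 were 2-fold higher and 1 was 2-fold lower, against 3.83% and 4.24% of all genes. The members were chosen on these contrasts, so nothing is read from the shares. Median changes over the 8 were 1.52 in BM1 and 0.58 in LM2, where the medians over all genes were 0.00 and -0.04. In bulk RNA, fewer cells that express a gene and less RNA per cell cannot be told apart.

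**Figure D1:**
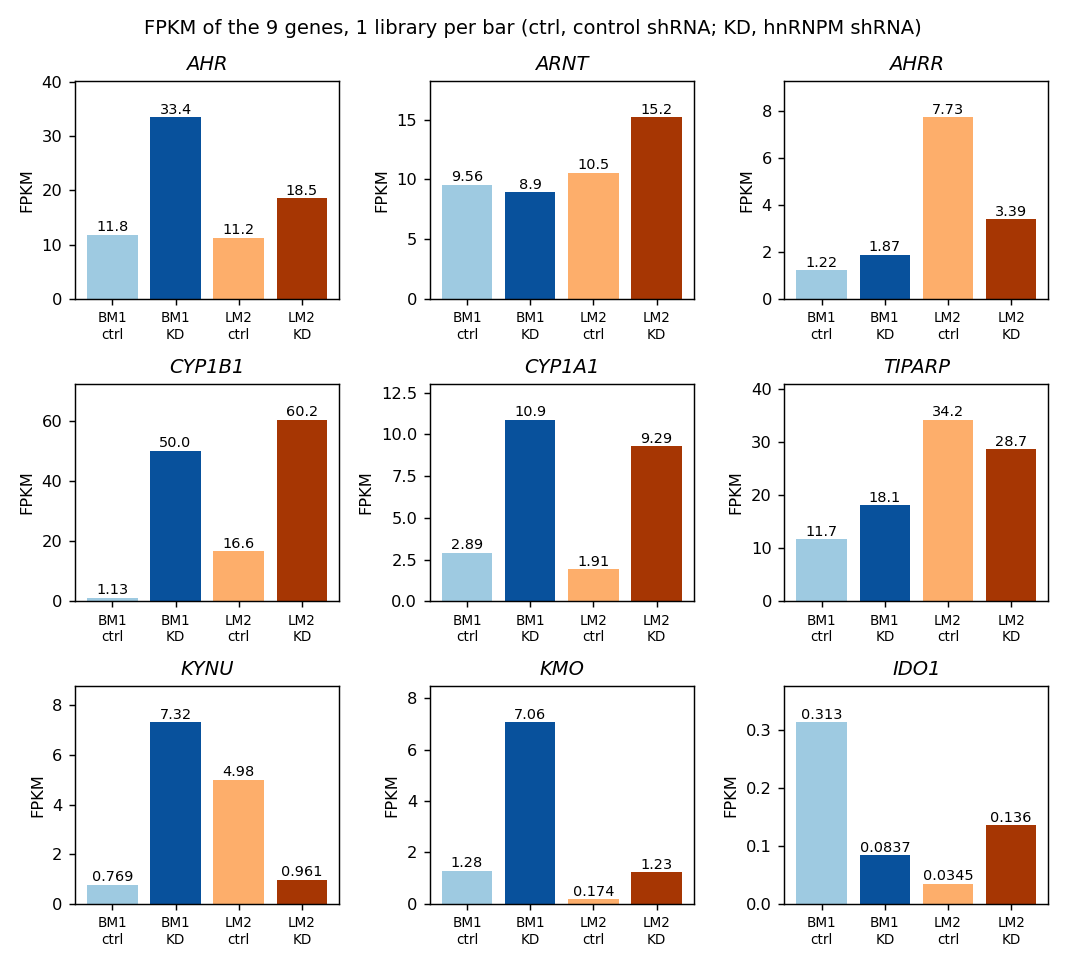
FPKM of the 9 genes in the 4 libraries, 1 bar per library and 1 panel per gene, each with its own axis from 0. CYP1B1 goes from 1.13 to 50.0 in BM1 and from 16.6 to 60.2 in LM2, and KYNU goes from 0.769 to 7.32 in BM1 but from 4.98 to 0.961 in LM2.

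AHR (ENSG00000106546.12, chromosome 7, 17338246 to 17385776, plus strand) was at 11.8 FPKM in the control of BM1 and 33.4 with the knockdown, against 11.2 and 18.5 in LM2. Both knockdown libraries were above both controls. The controls of the lines lay close together, and the change was 1.43 in BM1 and 0.67 in LM2. By level, AHR stood at the 72.0th and 70.3rd percentiles of the 20329 genes in the BM1 and LM2 controls and at the 88.1st and 79.4th in the corresponding knockdowns. ARNT (ENSG00000143437.20, chromosome 1, 150782181 to 150849244, minus strand), the partner that AHR needs to bind DNA, differed by less than 2-fold in both lines. It was at 9.56 FPKM in the control and 8.90 with the knockdown in BM1, against 10.5 and 15.2 in LM2, changes of -0.09 and 0.49. AHR exceeded ARNT in FPKM in all 4 libraries, by the least in the LM2 control.

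AHRR (ENSG00000063438.16, chromosome 5, 304291 to 438406, plus strand), which competes with AHR for ARNT, was low in BM1, at 1.22 FPKM in the control and 1.87 with the knockdown. In LM2 the values were 7.73 and 3.39 FPKM. Both LM2 libraries were above both BM1 libraries, and the knockdown library was higher than its control in BM1 and lower in LM2, with changes of 0.37 and -0.99. With a pseudocount of 0.5 in place of 1 the LM2 change was -1.08, past 2-fold. AHRR shares 49681 bases with PDCD6 on the same strand, a gene at 35.0 to 48.3 FPKM, so fragments in the shared stretch could be counted to either. PDCD6 had changes of 0.38 in BM1 and -0.24 in LM2, the same signs as AHRR. How much of the AHRR values comes from PDCD6 fragments was not tested.

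The 2 cytochromes of the group were higher in the knockdown library of each line. CYP1B1 (ENSG00000138061.11, chromosome 2, 38294116 to 38337044, minus strand) was at 1.13 FPKM in the control of BM1 and 50.0 with the knockdown, against 16.6 and 60.2 in LM2. The knockdown libraries were far above their own controls, and the low outlying value was the BM1 control. The ratio of knockdown to control was 44.2 in BM1 and 3.63 in LM2, and the changes were 4.58 and 1.80. Among the 13928 genes, the BM1 change was the 3rd largest increase and the LM2 change the 88th. The lines differed 14.7-fold in the controls and 1.20-fold in the knockdowns, with LM2 higher in both.

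CYP1A1 (ENSG00000140465.13, chromosome 15, 75011883 to 75017951, minus strand) was at 2.89 FPKM in the control of BM1 and 10.9 with the knockdown, against 1.91 and 9.29 in LM2. Both knockdown libraries exceeded both controls. Its changes were 1.61 and 1.82, the closest pair of changes among the 8 members. CYP1B1 and CYP1A1 were the 2 members at least 2-fold higher with the knockdown in both lines, as were 1.92% of all genes. In the knockdown libraries CYP1A1 stood at the 69.4th (BM1) and 66.9th (LM2) percentile by level, where CYP1B1 stood at the 92.3rd and 94.0th. CYP1A1 overlaps no other gene of the table. TIPARP (ENSG00000163659.12, chromosome 3, 156391024 to 156424559, plus strand), an ADP-ribosyltransferase that marks AHR for removal, did not follow the cytochromes. Its BM1 values were 11.7 FPKM in the control and 18.1 with the knockdown, and its LM2 values 34.2 and 28.7, changes of 0.59 and -0.25. As with AHRR, both LM2 values were above both BM1 values.

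Kynurenine enzymes differed in how they followed the lines. KMO (ENSG00000117009.11, chromosome 1, 241695434 to 241758944, plus strand) was at 1.28 FPKM in the control of BM1 and 7.06 with the knockdown, against 0.174 and 1.23 in LM2. The knockdown library was the higher in each line, and the BM1 knockdown stood well above the other libraries. The ratio of knockdown to control was 5.53 in BM1 and 7.07 in LM2, while the changes on log2(FPKM + 1) were 1.82 and 0.93 because of the low LM2 levels. With a pseudocount of 0.1 the LM2 change was 2.28. Taken over its longest coding transcript in GENCODE 29, the LM2 control value stands for about 38 fragments.

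KYNU (ENSG00000115919.14, chromosome 2, 143635067 to 143813401, plus strand) went in opposite directions in the lines. In BM1 it was at 0.769 FPKM in the control and 7.32 with the knockdown. In LM2 it was at 4.98 and 0.961. The BM1 control and the LM2 knockdown were the low libraries, and the other pair was high. The knockdown library was 9.52-fold higher in BM1 and 5.18-fold lower in LM2, and the changes were 2.23 and -1.61. The difference between these changes, 3.84, was the 5th largest in favour of BM1 among all genes compared. Of all genes compared, 18 (0.129%) differed at least 2-fold in opposite directions, and KYNU was the only one of the 8 members among them. KYNU overlaps no other gene of the table. Whether the lines' changes differ was not tested.

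IDO1 (ENSG00000131203.12, chromosome 8, 39759794 to 39785963, plus strand) was near the detection limit. It was at 0.313 FPKM in the control of BM1 and 0.0837 with the knockdown, against 0.0345 and 0.136 in LM2. Over its longest coding transcript these values stand for about 21, 4, 3 and 8 fragments, too few for a comparison. IDO1 was left out of the counts among the 8 members, and the closing sections include it with this limit.

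**Figure D2:**
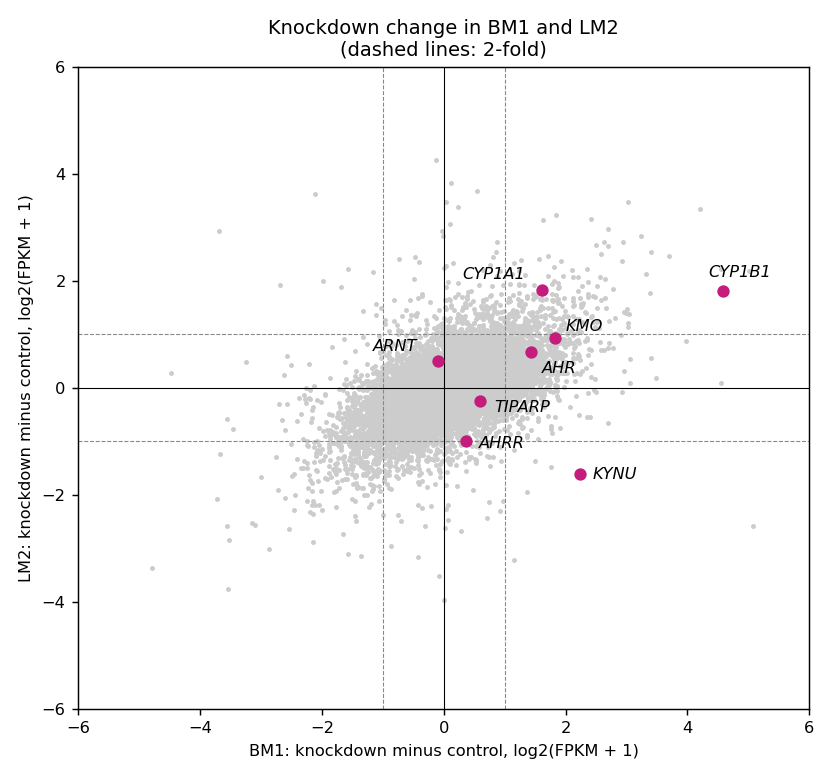
Knockdown minus control on log2(FPKM + 1) in BM1 (horizontal) and LM2 (vertical), with 1 grey point per gene compared (13928), the 8 members that passed the filter in pink and dashed lines at 2-fold. CYP1B1 and CYP1A1 lie beyond 2-fold in both lines, AHR and KMO beyond it in BM1 alone on this scale, and KYNU lies apart with a positive BM1 change of 2.23 and a negative LM2 change of -1.61.

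Of the 8 members, 4 had knockdown changes of opposite sign in the lines (AHRR, ARNT, TIPARP and KYNU), against 30.9% of all genes.

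Comparing LM2 with BM1 gave unlike values in controls and knockdowns for several members, a contrast that was not tested. In the control libraries 4 members were at least 2-fold higher in LM2 (CYP1B1, AHRR, TIPARP and KYNU, with differences of 3.04, 1.98, 1.48 and 1.76) and 0 were 2-fold lower. All genes gave 6.98% higher and 5.26% lower. In the knockdown libraries 0 were 2-fold higher and 2 were 2-fold lower in LM2 (KYNU at -2.08 and KMO at -1.85), where all genes gave 4.41% higher and 4.63% lower. CYP1B1, AHRR and TIPARP were higher in LM2 there too, by 0.26, 0.62 and 0.64. For KYNU the order of the lines turned, from 6.48-fold higher in LM2 among controls to 7.61-fold higher in BM1 among knockdowns. KMO was higher in BM1 in both, 7.34-fold among controls and 5.75-fold among knockdowns.

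Several members share their position with another gene, and some of these neighbours had similar values. CYP1B1-AS1, a non-coding RNA gene on the opposite strand that shares 36455 bases with CYP1B1, was at 0.379 FPKM in the control of BM1 and 13.5 with the knockdown, against 5.17 and 34.7 in LM2. That is the same order of libraries as for CYP1B1. OPN3, an opsin gene on the opposite strand that shares 5541 bases with KMO, was at 5.46 then 28.3 FPKM in BM1, against 1.83 then 4.71 in LM2. Its changes, 2.18 and 1.01, lay close to those of KMO. The AHR neighbour AC003075.4, with 736 shared bases on the opposite strand, was at 1.92 then 8.16 FPKM in BM1, against 4.03 then 3.17 in LM2, so it was higher with the knockdown in BM1 alone. RMDN2, which shares 170 bases with CYP1B1, was at 1.13 then 6.60 FPKM in BM1, against 1.47 then 1.82 in LM2. TIPARP-AS1, on the strand opposite TIPARP with 1144 shared bases, was at or below 0.906 FPKM in each library. Per the labels the libraries are stranded, but no source used here says whether the counting used strand. Without it, fragments of such partners cannot be told apart.

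**Figure D3:**
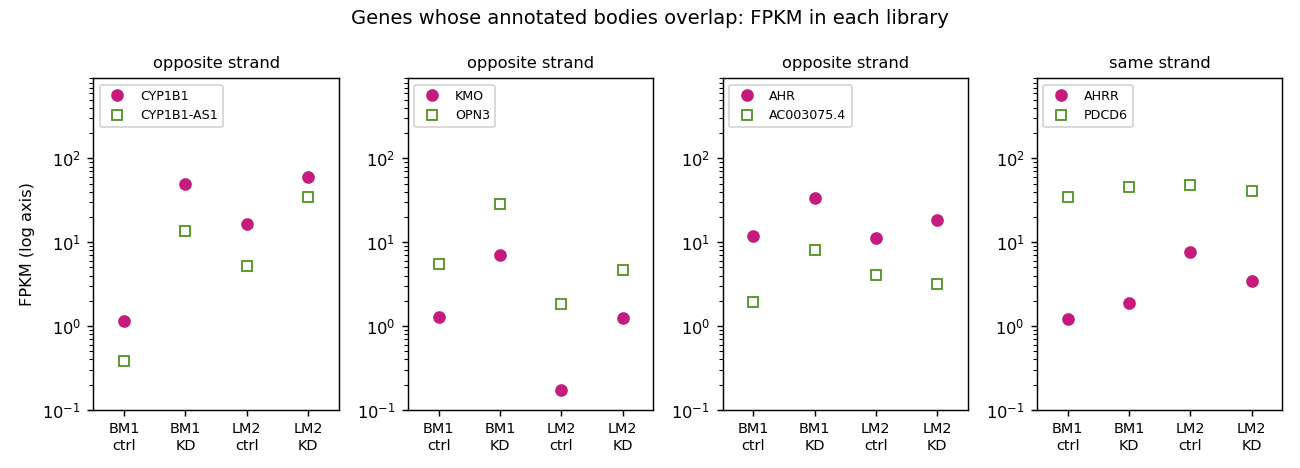
FPKM on a log axis in the 4 libraries for 4 members (filled circles) and a gene whose annotated body overlaps each (open squares), with the strand of the overlap above each panel. CYP1B1-AS1 and OPN3 have the same order of libraries as CYP1B1 and KMO. PDCD6 stays between 35.0 and 48.3 FPKM where AHRR goes from 1.22 to 7.73, but both are higher with the knockdown in BM1 and lower in LM2.

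The genes with the most similar pattern were sought for CYP1B1 and KYNU by the Euclidean distance between log2(FPKM + 1) values centred on each gene's mean, over 4 libraries and 13927 other genes. For CYP1B1 they were CYP1B1-AS1 (distance 0.99), ID3 (1.11) and THBS1 (1.19). ID3, an inhibitor of basic helix-loop-helix factors, was at 2.39 then 108 FPKM in BM1, against 12.9 then 61.6 in LM2. THBS1, which encodes the secreted glycoprotein thrombospondin-1, was at 39.6 then 324 FPKM in BM1, against 170 then 472 in LM2. For KYNU they were CDC42SE2 (0.35), MFAP3 (0.55) and AC012358.8 (0.66). CDC42SE2, which encodes a small effector of the GTPase CDC42, was at 3.33 then 13.6 FPKM in BM1, against 10.6 then 3.12 in LM2. MFAP3, which encodes a microfibril-associated protein, was at 6.77 then 20.8 FPKM in BM1, against 17.1 then 5.96 in LM2. AC012358.8 was at 0.745 then 5.55 FPKM in BM1, against 2.67 then 1.19 in LM2. Each of these 3 was highest in the BM1 knockdown and next in the LM2 control, as KYNU was, and AC012358.8 also had its 2 lowest libraries in the order of KYNU. MFAP3, AC012358.8 and THBS1 overlap other genes of the table. With 4 libraries such likeness is a description.

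The other genes of the pathways were taken from 9 lists written from general knowledge, with 86 genes, of which 75 were measured and 65 passed the filter. Earlier results of these data were known when the lists were chosen. Calls on them, here and between the lines below, are therefore no independent check of the members. A limma fit across all genes, with terms for line and treatment and a Benjamini-Hochberg adjusted p of 0.05 as threshold, called 2 of these 65 higher and 3 lower in the knockdown libraries, against 2.71% and 2.76% of all genes. The median change over both lines was 0.01, and it was -0.01 over all genes. These 5 calls came from a fit with 1 residual degree of freedom per gene, which is the difference between the lines' changes. Limma pulls each gene's spread toward that of all genes, so the standard errors below are not a gene's own spread. None of the 5 was called with a pseudocount of 0.1, with quantile normalization, without the filter, without the term for line, or when any library was left out. At an unadjusted p under 0.05, limma gave 3465 of the 13928 genes compared, and 3735 of 20329 without the filter. Among the 65 list genes it gave 18, so nothing is read from that count. It gave 17 of 75 without the filter and 4 to 17 of 65 in the other settings.

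Among the AHR-responsive genes of the list, 12 of 15 were measured, 9 passed the filter, and 1 rose and 0 fell. EREG, the growth factor epiregulin, rose in BM1 from 1.24 to 12.1 FPKM, and in LM2 from 15.8 to 35.3. The fitted change was 1.83 ± 0.35 (standard error on the log2 scale, limma, Benjamini-Hochberg adjusted p 0.0254). The lowest average change was that of ALDH3A1, an aldehyde dehydrogenase, at 5.43 then 3.59 FPKM in BM1, against 5.91 then 1.45 in LM2 (-0.99 ± 0.30, adjusted p 0.0940). NQO1, a quinone reductase shared with the NRF2 response, was at 27.9 then 30.9 FPKM in BM1, against 119 then 96.5 in LM2. Its knockdown change did not pass (-0.08, adjusted p 0.879). The median change of the 9 genes was 0.17 in BM1 and -0.30 in LM2.

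The chaperone complex that holds AHR in the cytosol gave 0 calls among 4 genes in limma, also 0 at an unadjusted p under 0.05. PTGES3, the HSP90 co-chaperone p23, had the highest average change, at -0.04 (adjusted p 0.942). HSP90AA1 and HSP90AB1 were abundant in every library, at 390 to 809 and 730 to 1525 FPKM.

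ARNT partners and related PAS proteins gave 1 rise and 1 fall among 8 genes compared, of 13 listed. EPAS1, which encodes the hypoxia factor HIF-2 alpha and pairs with ARNT, rose in BM1 from 5.90 to 20.7 FPKM, and in LM2 from 15.5 to 34.3 (1.38 ± 0.27, adjusted p 0.0266). NPAS2, a clock factor, fell in BM1 from 26.4 to 12.3 FPKM, and in LM2 from 36.2 to 8.78 (-1.48 ± 0.29, adjusted p 0.0274). HIF1A and ARNT2 were picked after their values were seen. HIF1A was at 54.7 then 126 FPKM in BM1, against 99.5 then 157 in LM2 (0.92, adjusted p 0.0809). ARNT2, the paralog of ARNT, was at 12.1 then 5.37 FPKM in BM1, against 6.66 then 20.5 in LM2, opposite in the lines.

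The remaining kynurenine pathway enzymes gave 0 limma calls among the 5 compared, of 11 listed and 8 measured, and 1 at an unadjusted p under 0.05. The lowest average change was that of CCBL1, a kynurenine aminotransferase, at 5.32 then 2.63 FPKM in BM1, against 4.62 then 2.82 in LM2 (-0.68, adjusted p 0.146). The highest was that of AADAT, another aminotransferase, at 0.11 (adjusted p 0.827). QPRT and ACMSD, which act on quinolinate and its precursor, were low, with at most 0.887 and 0.0618 FPKM. The median change of the 5 genes was -0.57 in BM1 and -0.08 in LM2.

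The list for transport and use of tryptophan gave 0 limma calls among 4 genes and 0 at an unadjusted p under 0.05, with average changes from -0.14 (SLC36A4, adjusted p 0.797) to 0.15 (WARS2, adjusted p 0.752). SLC7A5 and SLC3A2, the subunits of an amino acid exchanger that carries tryptophan and kynurenine, were singled out after their values were seen, and SLC7A5 stood in the AHR-responsive list. SLC7A5 was at 131 then 322 FPKM in BM1, against 370 then 254 in LM2. SLC3A2 was at 171 then 268 FPKM in BM1, against 357 then 207 in LM2. Like KYNU, both were higher with the knockdown in BM1 and lower in LM2, with adjusted p of 0.601 and 0.922 over both lines in limma.

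Among NAD synthesis genes 0 of 7 were called by limma and 0 were at an unadjusted p under 0.05, with average changes from -0.36 (NMNAT2, adjusted p 0.413) to 0.19 (NADK, adjusted p 0.679). Interferon gamma signalling, which is known to induce IDO1, also gave 0 of 7, with 3 at an unadjusted p under 0.05 in limma. Over all genes 3465 of 13928 were under it. IFNGR1, a receptor subunit, was at 10.5 then 32.2 FPKM in BM1, against 13.6 then 18.7 in LM2 (0.99 ± 0.31, adjusted p 0.101), and IRF1, a transcription factor, had the lowest change (-0.53, adjusted p 0.241). In the PARP family, to which TIPARP belongs, 1 of 15 fell and 0 rose. PARP4, which is found in vault particles, fell in BM1 from 29.4 to 13.7 FPKM, and in LM2 from 42.9 to 19.9 (-1.06 ± 0.25, adjusted p 0.0470). TNKS2, a tankyrase, had the highest average change (0.82, adjusted p 0.132).

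Among the partners of microsomal P450 enzymes 1 of 6 fell and 0 rose. GSTP1, a glutathione transferase that conjugates oxidised aromatic compounds, fell in BM1 from 135 to 30.5 FPKM, and in LM2 from 144 to 49.3 (-1.82 ± 0.27, adjusted p 0.0124). POR, which passes electrons to CYP1A1 and CYP1B1, stayed between 12.2 and 16.8 FPKM. EPHX1, an epoxide hydrolase, was at 8.71 then 14.9 FPKM in BM1, against 15.9 then 30.6 in LM2 (0.81, adjusted p 0.0981).

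Between the lines, limma called 5 of the 65 genes higher and 1 lower in LM2, against 2.31% and 2.04% of all genes. The AHR-responsive list held 4 of the 5, among them LPCAT2, whose place in that list is less certain than that of the others. EREG, at the values given above, differed by 2.19 ± 0.35 (adjusted p 0.0120), and NQO1 by 1.83 ± 0.26 (adjusted p 0.00772). IL1B, the cytokine interleukin-1 beta, was at 2.27 then 1.97 FPKM in BM1, against 26.5 then 6.93 in LM2 (2.24 ± 0.38, adjusted p 0.0151). LPCAT2, a lysophospholipid acyltransferase, was at 1.48 then 1.78 FPKM in BM1, against 5.60 then 8.76 in LM2 (1.61 ± 0.26, adjusted p 0.0125). The fifth was SOCS1, a feedback inhibitor of interferon signalling, at 0.720 then 0.688 FPKM in BM1, against 3.33 then 3.44 in LM2 (1.36 ± 0.25, adjusted p 0.0220). CYB5A, which encodes the P450 electron donor cytochrome b5, was lower in LM2, at 22.2 then 23.8 FPKM in BM1, against 3.60 then 3.43 in LM2 (-2.41 ± 0.25, adjusted p 0.00179). Without the filter, without the term for treatment or with any library left out, none of the 6 was called (limma gave 21 of 75 at an unadjusted p under 0.05 without the filter, and 5 to 16 of 65 in the others), and with quantile normalization 1 was, lower in LM2. In the main fit limma gave 18 of the 65 at an unadjusted p under 0.05, where it gave 3114 of the 13928 genes compared. Without the filter it gave 3634 of 20329 over all genes. LPCAT2, NQO1, SOCS1 and NPAS2 overlap other genes of the table.

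**Figure D4:**
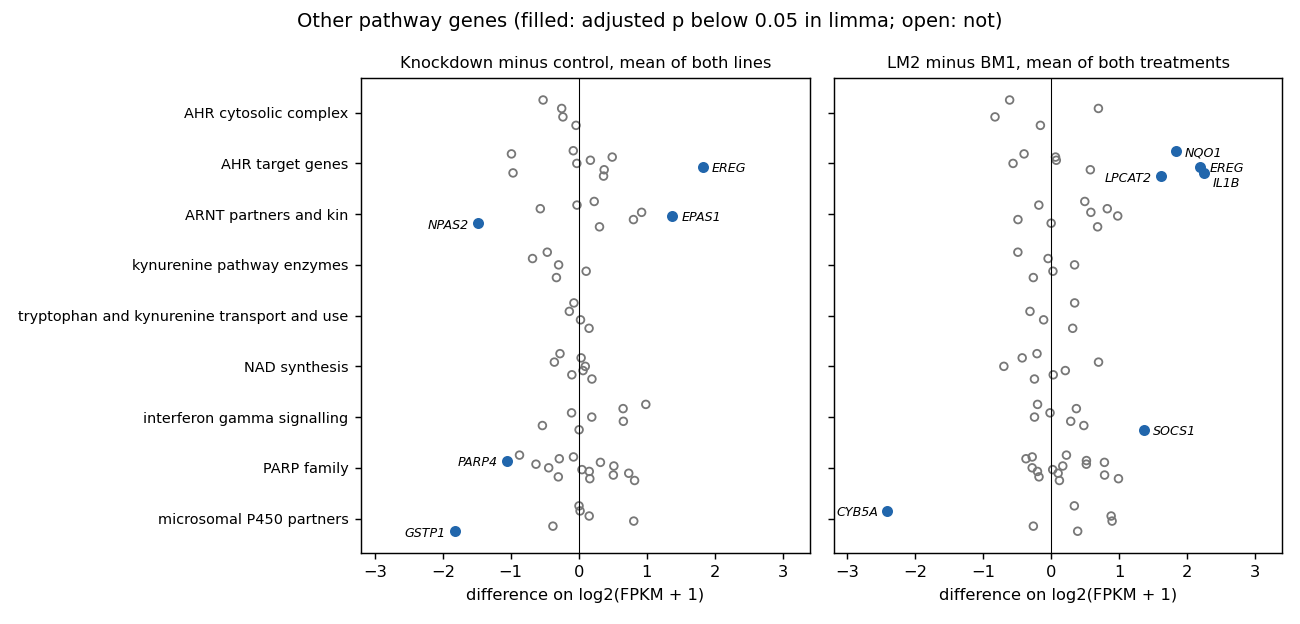
Average difference on log2(FPKM + 1) of the 65 other pathway genes that passed the filter, by list, for knockdown minus control over both lines (left) and LM2 minus BM1 over both treatments (right), with genes called by limma filled and named. Kynurenine enzymes, NAD synthesis, the AHR cytosolic complex and the list for tryptophan transport and use have no filled point on either side. On the right, 4 genes of the AHR-responsive list are filled.

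Markers of cell identity were read beside these results. The mesenchymal-like markers VIM, AXL, CD44, CAV1 and EGFR summed to 1908 to 3082 FPKM per library, most of it from VIM. VIM was at 2354 then 1160 FPKM in BM1, against 1575 then 1795 in LM2. Changes in BM1 and LM2 were -1.02 and 0.19 for VIM, and -0.58 and -0.07 for AXL. They were 0.02 and -0.04 for CD44, 0.81 and 0.61 for CAV1, and 0.65 and -0.17 for EGFR. Of 6 luminal markers 3 were measured, with GATA3 at or below 3.33, ERBB2 at 13.5 to 21.9 and XBP1 at 33.6 to 41.8 FPKM. ESR1, PGR and FOXA1 were not analysed here. Of 7 markers of myeloid cells, the cells best known for IDO1, KMO and KYNU, 3 were measured, and their summed level was 25.5 and 6.20 FPKM in BM1 and 11.7 and 9.23 in LM2. CD68, which also marks lysosomes in other cells, fell in BM1 from 23.5 to 4.46 FPKM, and in LM2 from 9.50 to 2.04 (-1.98 ± 0.26, adjusted p 0.00969). It overlaps other genes of the table on the same and on the opposite strand. CD14 was at 1.62 then 1.47 FPKM in BM1, against 1.97 then 7.09 in LM2, and CSF1R was at or below 0.375 FPKM in every library. PTPRC, ITGAM, LYZ and FCGR3A were not analysed here, nor were the 5 endothelial and lymphoid markers. The part of other cells in the KMO and KYNU values was not tested.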

How the data were processed

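The authors deposited 1 table of FPKM values per gene, per the labels, with 1 column for each of the 4 stranded polyA libraries. The submitters' processing notes name STAR 2.5.3a, Cuffdiff 2.2.1 and GRCh37, without roles. Of 20369 entries, 40 with a repeated gene ID were left out. Depth was inferred from 1623 low genes with 1 GENCODE 29 transcript: FPKM times length lay within 0.02 of a whole multiple of 1 step for 36.0% to 44.0% of values up to 10 steps. A further 8.04% to 10.2% lay within 0.02 of halfway between multiples. The step was the one that made the share near whole multiples largest, so depths and fragment numbers are approximate. Too few came out whole for a count test. Values were analysed as log2(FPKM + 1) for the 13928 genes whose FPKM averaged 1 or more, in limma 3.58.1 (R 4.3.3) with terms for line and treatment, p-values two-sided and adjusted by Benjamini-Hochberg over these genes, threshold 0.05. The fit was tested on simulated data. How many of the calls in these libraries are false was not tested. Cell line pairs each knockdown with its control, and deviations from the treatment means correlated between libraries of 1 line (Pearson r 0.545 across genes). With 1 library per line and treatment, this r only compares the difference between lines in controls with that in knockdowns. Each line and treatment is a single culture without a replicate, so p-values and standard errors rest only on the spread between these libraries. Limma shares that spread over genes. PARP4, with changes of -1.05 in BM1 and -1.07 in LM2, therefore had a standard error of 0.25. Named genes were HNRNPM, the members, list genes called in either contrast, the highest and lowest average knockdown change in each list, and the 3 nearest profiles of CYP1B1 and KYNU. A gene that this rule names is not reported here. Members and lists were chosen with earlier results of these data known. Alternatives were pseudocounts, size factors, quantile normalization, no filter, no pairing, a 1.5-fold rule and leaving out each library.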

Additional observations from a re-analysis of the deposited data

Results flagged for a closer look

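KYNU, AHRR, TIPARP and ARNT drew attention because their knockdown and control libraries differed in opposite directions in the 2 lines. The difference between lines was not tested, since each line has 1 library per treatment. The change in BM1 minus that in LM2 on log2(FPKM + 1) was 3.84 for KYNU, 1.36 for AHRR, 0.84 for TIPARP and -0.58 for ARNT. KYNU alone passed 2-fold in both lines. PDCD6, which overlaps AHRR on the same strand, also had changes of opposite sign, 0.38 in BM1 and -0.24 in LM2. IDO1 gave -0.41 by the same measure, from about 3 to 21 fragments per library, too few to read a direction from.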

How the results depend on the processing

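The knockdown changes of the 9 members and their differences between lines kept their direction under pseudocounts of 0.1 and 0.5, size factors and quantile normalization (IDO1 was not in the quantile set). Of these values, 132 kept their side of 2-fold and 8 passed it, all with a smaller pseudocount, in AHRR, IDO1 and KMO. The IDO1 values are included but rest on too few fragments to read a direction from. Of 18 knockdown changes, those of IDO1 included, 8 passed 2-fold, and 8 to 11 under the alternatives. Limma calls were less stable. The knockdown calls, 762 over all genes and 5 among pathway genes, were 613 and 4 with a pseudocount of 0.5 and 866 and 5 with size factors. They went to 27 and 0 with a pseudocount of 0.1. They went to 0 and 0 with quantile normalization, without the filter and in the fit without pairing by line (no replicate block). In these 3 settings limma gave 3255, 3735 and 1548 genes at an unadjusted p under 0.05, and 17, 17 and 8 pathway genes. Leaving out 1 library, which also removed the pairing, gave 0 in each case, with 860 to 1943 genes at an unadjusted p under 0.05. The line calls, 606 and 6, were 484 and 6 with a pseudocount of 0.5 and 673 and 6 with size factors. They went to 216 and 3 with a pseudocount of 0.1 and to 104 and 1 with quantile normalization. Without the filter they were 0 and 0, and without the block for treatment 11 and 0. Leaving out 1 library gave 6 to 28 over all genes and 0 among pathway genes. Counts of 2-fold genes were 2264 in BM1, 1123 in LM2, 1705 between controls and 1259 between knockdowns, and 5262, 3418, 4738 and 3865 with a 1.5-fold rule. A pseudocount of 0.1 gave 1824 in LM2, 2636 between controls and 2013 between knockdowns. The balance of higher to lower genes in LM2 was 533 to 590, and 580 to 521 with quantile normalization. The cause of these shifts was not tested. Depth limits IDO1 and the LM2 control value of KMO most.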
